A study of Mus musculus with 12 samples.

Results

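RNA was compared between CSp5C and SSp5C libraries from the spinal trigeminal nucleus caudalis (Sp5C) of the mouse, in a study of chronic inflammatory pain in the temporomandibular joint. The members were the 6 Sp5C libraries of the 12 in the series, chosen by sample title, with 3 titled CSp5C and 3 titled SSp5C. The other 6 came from trigeminal ganglia (TG) and were used only to set the Sp5C values against them. The mice of both groups belonged to the inbred strain C57BL/6 and were 8 weeks old, and no transgene or deletion is named. The labels do not spell out what C and S stand for, so the letters are used as they stand and each difference is C minus S. Nor is it stated whether the 3 libraries came from separate, pooled or single animals. The p-values therefore reflect the spread of these samples alone, and that spread may be technical.

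The Sp5C lies in the lower brainstem, where the central axons of trigeminal neurons carrying pain and temperature from the face, teeth and jaw end. Its superficial layers hold small excitatory and inhibitory interneurons that use glutamate, GABA and glycine, much like the dorsal horn of the spinal cord, and its projection neurons pass the signal to the thalamus and brainstem. Myelinated fibres of the spinal trigeminal tract run along its border, so a dissected piece also holds many oligodendrocytes, the myelin-forming glia of the central nervous system. Each value is FPKM, the number of fragments scaled to transcript length and library size, summed over the transcripts of a gene. In bulk RNA of this kind, fewer cells of a type and less RNA per cell cannot be told apart.

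All 6 libraries held RNA of neurons and of hindbrain or cord position. Slc17a6, the vesicular glutamate transporter of the dorsal horn type, stood at 52.2, 57.6 and 53.2 FPKM in the CSp5C libraries and at 52.2, 61.0 and 57.5 in the SSp5C libraries. It stood as high in the ganglia, at 53.7 to 59.6 in CTG and 53.9 to 54.8 in STG, so it does not tell the tissues apart. Slc32a1, which loads GABA and glycine into vesicles, stood at 47.8 to 59.4, and Hoxb5, a gene of hindbrain and cord position, at 25.7 to 39.7. In TG these 2 genes reached no more than 0.114 and 0.04. The nociceptor channel Scn10a and the Schwann cell gene Prx of the peripheral nerve list fell under a mean of 1 FPKM. The 6 libraries were close to one another, with correlations of 0.974 to 0.987 between libraries of the same letter and 0.976 to 0.986 between libraries of different letters. The first principal component held 31.8% of the variance and did not separate the groups, and the second held 24.5% and placed the 3 CSp5C libraries above and the 3 SSp5C libraries below 0. FPKM values give no read numbers, but the spacing of low values put the relative depth at 0.796 (CSp5C replicate 3) to 1.02 (SSp5C replicate 2) of that of CSp5C replicate 1. One assembled locus took 28.1% to 41.3% of the summed FPKM, the highest share being in SSp5C replicate 1.

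Few genes separated the groups. Of 12690 genes with a mean of at least 1 FPKM, limma's test on log2(FPKM + 1) called 4 at an adjusted p under 0.05 (0.0315% of those tested). One, 2810474O19Rik, rose in CSp5C (0.00788%), and the other three, Prm1, Tnp1 and Mrps10, fell (0.0236%). The median log2 difference over all genes was 0.00 and the median absolute difference 0.07. An absolute difference of at least 0.5 was reached by 255 genes and one of at least 1 by 49. At an unadjusted p under 0.05 there were 637 genes (5.02%), 273 higher (2.15%) and 364 lower (2.87%) in CSp5C. The 3 libraries of one group lay wholly above the 3 of the other in 1382 genes (10.9%), of which 595 were higher (4.69%) and 787 lower (6.2%) in CSp5C. The calls depended on single libraries: without CSp5C replicate 1 there were 7, without CSp5C replicate 3 there were 8, without SSp5C replicate 1 there was 1, and without SSp5C replicate 2 there were 0.

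**Figure D1:**
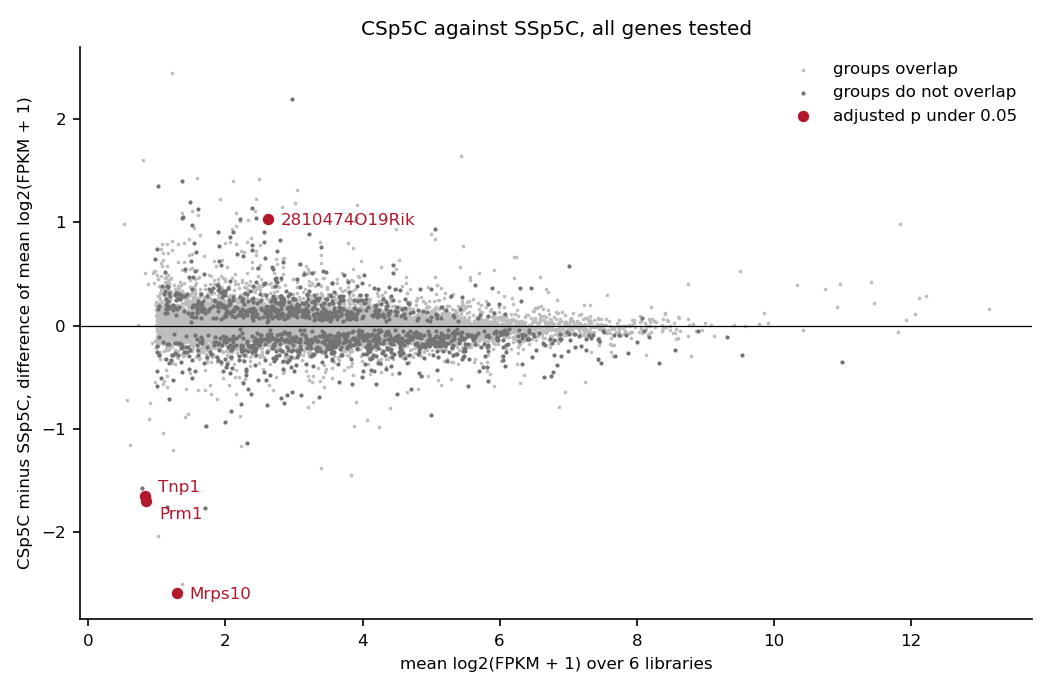
Difference between CSp5C and SSp5C (mean log2(FPKM + 1), y axis) against the mean level over the 6 libraries (log2(FPKM + 1), x axis) for the 12690 genes tested. Grey dots are genes whose groups overlap, dark dots genes whose groups do not, and the 4 red dots the genes past the threshold, of which 2810474O19Rik lies above 0 and Prm1, Tnp1 and Mrps10 lie at the low end of expression below 0.

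Genes that spermatids use to pack their DNA were listed at 0 in each CSp5C library and at low values in each SSp5C library. Prm1, protamine 1, which replaces histones in sperm, was at 0, 0 and 0 FPKM in CSp5C and at 2.23, 2.44 and 2.06 in SSp5C (adjusted p = 0.00879). Tnp1, a transition protein that precedes the protamines on the DNA, was at 0, 0 and 0 against 1.83, 2.58 and 2.09 (adjusted p = 0.0149). Prm2, protamine 2, was at 0 in CSp5C and at 1.31, 2.29 and 2.47 in SSp5C and did not pass (adjusted p = 0.0895). No library of one group overlapped the other for these genes. They passed the expression filter only through SSp5C, so they had to differ to be tested. The fitted log2 difference of Prm1 was −1.70 with a pseudocount of 1 and −4.55 with 0.1, that of Tnp1 −1.66 and −4.49, so the size has no fixed value when one group is at 0. Without CSp5C replicate 2 the adjusted p of Tnp1 was 0.0585. By gene identifier, GENCODE M21 (build GRCm38) places Prm1 at chr16:10796326-10805839 on the minus strand and Tnp1 at chr1:73015074-73015909 on the minus strand. The authors' own build was not stated in the sources used.

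The whole list of 20 spermatid genes showed the same division by library. Its summed level was 0.835, 0.581 and 1.26 FPKM in the CSp5C libraries and 13.1, 13.7 and 13.3 in the SSp5C libraries. Of the 20 genes, 13 were at 0 in all CSp5C libraries and none in all SSp5C libraries, and 18 were above 0 in all SSp5C libraries. Of the members under the filter, Tnp2, the second transition protein, stood at 0 in CSp5C and at 1.57, 1.11 and 1.23 in SSp5C, and Ldhc, the lactate dehydrogenase of the testis, at 0 against 1.09, 1.03 and 0.822. Both were looked at after their values were seen, because they passed when no expression filter was used. In the ganglia the same sum was 13.98, 13.5 and 0.97 in the CTG libraries and 1.44, 14.6 and 12.9 in the STG libraries. There it was high in 2 CTG and 2 STG libraries and low in 1 of each, so it did not follow the letter. In Sp5C the letter and whatever separates the libraries with and without these transcripts cannot be told apart.

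Mrps10, a protein of the small subunit of the mitochondrial ribosome, was also listed at 0 in each CSp5C library and stood at 3.67, 5.49 and 6.22 FPKM in the SSp5C libraries (adjusted p = 0.00879). It too passed the expression filter only through SSp5C, so it had to differ to be tested. All 5 of its listed transcripts were at 0 in CSp5C. In the ganglia it stood at 0, 4.99 and 0.136 in CTG and at 3.7, 0 and 0 in STG, so libraries at 0 occurred with both letters. Its call was lost without SSp5C replicate 2 (adjusted p = 0.0747). The other proteins of the small subunit did not share this, since 15 of 30 list members were higher and 15 lower, with a median log2 difference of −0.00. An exact 0 in a table of FPKM can be a failed estimate, and genes that all cells use were at 0 in single libraries here. Ndufs3, a subunit of respiratory complex I, was at 0 in CSp5C replicate 3 and at 20.1 to 27.7 in the other 5 libraries, and Ranbp1, a partner of the nuclear transport protein Ran, at 0 in the same library and at 14.1 to 17.3 elsewhere. There were 15 genes with a median of at least 3 FPKM and a 0 in some Sp5C library. Tested genes at 0 in all 3 CSp5C libraries numbered 5, namely the 4 above and Gcc2, a Golgi coiled-coil protein, and those at 0 in all 3 SSp5C libraries numbered 2, Pgm2 and Epg5. Mrps10 lies at chr17:47368887-47381417 on the plus strand (GRCm38).

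2810474O19Rik was the only gene past the threshold that was higher in CSp5C. It is named Resf1 in GENCODE M21, at chr6:149309414-149335663 on the plus strand (GRCm38), and encodes retroelement silencing factor 1, which acts with the histone H3K9 methyltransferase Setdb1 on endogenous retroviruses. It stood at 8.22, 8.00 and 7.26 FPKM in CSp5C and at 3.11, 3.80 and 3.02 in SSp5C. All 3 CSp5C libraries lay above all 3 SSp5C libraries, and the means differed 2.36-fold (7.82 ± 0.502 against 3.31 ± 0.43, SD, n = 3 libraries each, adjusted p = 0.0398). Leaving out any single library ended the call, with an adjusted p between 0.0551 (CSp5C replicate 3) and 0.327 (SSp5C replicate 1). The call was also lost with no expression filter (adjusted p = 0.0724) and with a minimum mean of 5 FPKM (adjusted p = 0.12). Most of the difference lay in 1 of its 9 transcripts, Resf1-210, at 4.07, 4.26 and 4.18 FPKM against 1.5, 0 and 0.294, which did not pass the transcript test (adjusted p = 0.705). The full-length transcript Resf1-201 stood at 1.69, 1.66 and 1.44 against 1.23, 2.74 and 1.4. In the ganglia the gene ranged from 3.25 to 14.6 FPKM with no order by letter.

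**Figure D2:**
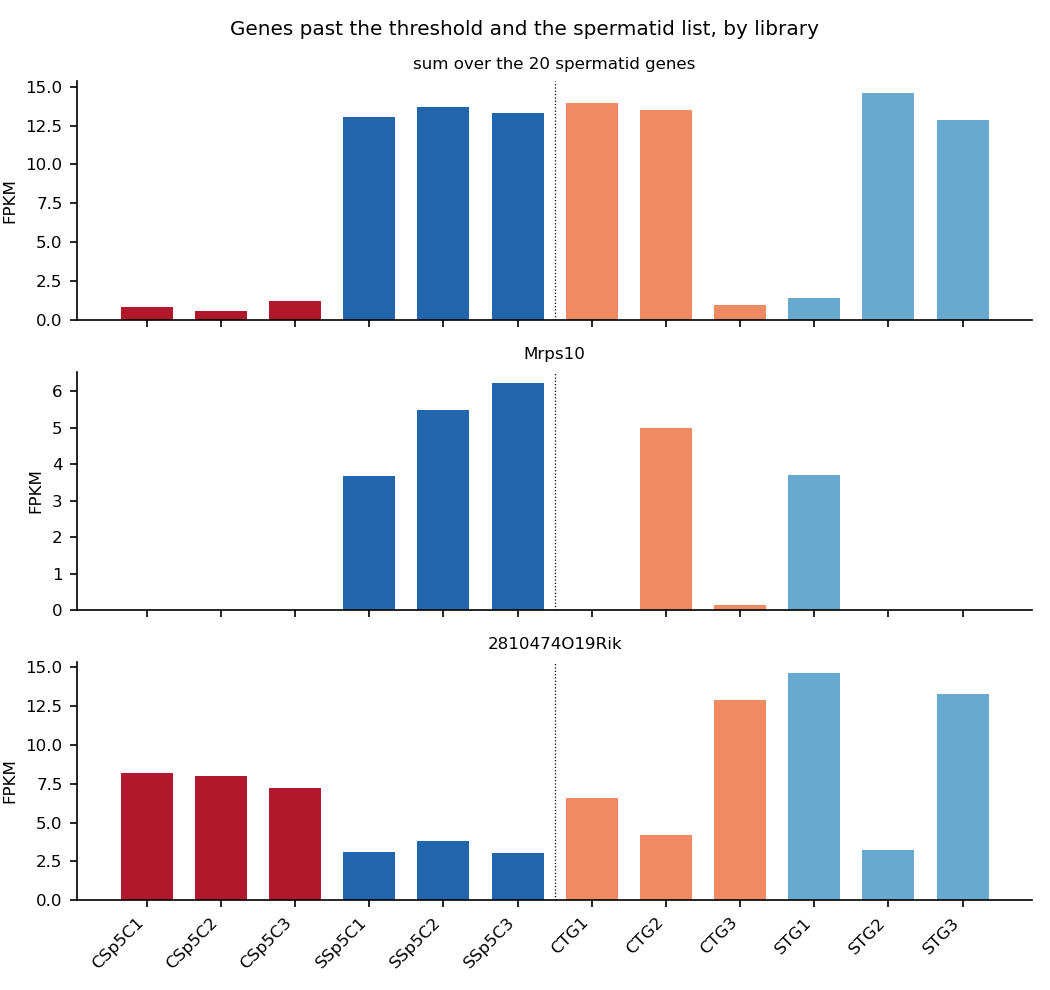
FPKM (y axes) in each of the 12 libraries (x axis, Sp5C left and TG right of the dotted line) of the summed spermatid list, Mrps10 and 2810474O19Rik. In Sp5C each panel divides along the letter, whereas in TG high and low libraries occur under both letters.

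Other genes of the H3K9 methylation list showed smaller differences. Setdb1 itself stood at 8.29, 8.62 and 8.76 FPKM against 8.61, 8.12 and 8.39 (adjusted p = 0.962). Trim28, the scaffold that brings Setdb1 to its targets, stood at 20.9, 23.5 and 22.6 against 26.6, 24.1 and 23.7, with no overlap. Cbx1, a reader of the mark, stood at 11.3, 12.3 and 11.6 against 13.8, 13.6 and 13.6, and Suv39h1, another H3K9 methyltransferase, at 5.40, 5.27 and 5.57 against 4.82, 4.52 and 4.65. Of the 16 members 11 were higher and 5 lower in CSp5C, with a median log2 difference of 0.02. Without overlap were 3 higher, 2810474O19Rik among them, and 2 lower, beside 4.69% and 6.2% of all genes. None but 2810474O19Rik passed.

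Single transcripts were tested in the same way as genes. Of 19425 transcripts with a mean of at least 1 FPKM, 4 passed (0.0206%), of 4 genes, 1 higher and 3 lower in CSp5C. At an unadjusted p under 0.05 there were 876 (4.51%), and 2043 did not overlap between groups (10.5%). For 3 of the 4 genes the sum over transcripts overlapped between the groups. Ramac-202, Eif5a-207 and Tmem151a-203 had a mean under 1 FPKM in the group where they were low and passed the expression filter only through the other group, so they had to differ to be tested.

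The lowest adjusted p was that of Inpp4a-201, a transcript of Inpp4a, the phosphatase that removes a phosphate from the membrane lipid PI(3,4)P2 and is abundant in neurons. It stood at 1.07, 1.12 and 1.33 FPKM in CSp5C and at 26.3, 19.999 and 21.6 in SSp5C (log2 difference −3.43, SE 0.12, adjusted p = 0.00527). Its share of the gene's FPKM was 3.67% to 4.16% in CSp5C and 72.8% to 78.8% in SSp5C. Inpp4a-209 showed the opposite, at 19.3, 19.9 and 19.9 against 3.01, 3.89 and 1.6 (adjusted p = 0.108). Both begin 24 bases apart and share 22 exons in GENCODE M21, and they encode 939 and 890 residues. The gene's sum stood at 28.3, 30.5 and 32.03 against 33.5, 27.5 and 27.4 (log2 difference 0.04, adjusted p = 0.963). In the ganglia Inpp4a-201 stood at 21.8, 0.905 and 0.862 in CTG and at 1.12, 23.4 and 1.06 in STG. So each library listed one transcript high and the other low, and in TG the choice did not follow the letter.

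Fam103a1, named Ramac in GENCODE M21, encodes the small activator of the enzyme that methylates the mRNA cap. Its transcript Ramac-202 rose, from 0.707, 0.638 and 0 FPKM in SSp5C to 24.02, 21.5 and 21.3 in CSp5C (log2 difference 4.04, SE 0.23, adjusted p = 0.0265). Ramac-201 stood at 21.5, 22.6 and 20.045 in CSp5C and 32.2, 37.3 and 44.2 in SSp5C. The start sites lie 358 bases apart, the coding exons are the same, and both encode 119 residues. The summed gene overlapped between groups (adjusted p = 0.931). In TG, Ramac-202 stood at 19.2, 0.016 and 0 in CTG and at 19.02, 19.8 and 0.032 in STG.

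Eif5a encodes a translation factor that carries the modified lysine hypusine. Eif5a-207 fell, standing at 0.802, 1.47 and 0.437 FPKM in CSp5C and at 35.2, 56.0 and 62.6 in SSp5C (log2 difference −4.77, SE 0.29, adjusted p = 0.0328). In CSp5C the FPKM lay instead on Eif5a-210 in replicates 1 and 2 (78.9 and 90.2) and on Eif5a-209 in replicate 3 (73.2). In SSp5C, Eif5a-210 stood at 42.5, 21.9 and 29.6, above Eif5a-207 in replicate 1. These 3 transcripts have the same coding exons for 154 residues and Eif5a-207 shares 5 exons with each of the other two. The gene's sum was 91.1, 115 and 105 against 106, 101 and 99.1 (log2 difference 0.02). In TG, Eif5a-207 stood at 77.1, 2.14 and 69.8 in CTG and at 75.1, 2.66 and 9.30 in STG.

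Tmem151a, a membrane protein gene, was the exception in that its sum also differed, at 36.8, 37.1 and 36.7 FPKM in CSp5C against 64.0, 52.3 and 52.1 in SSp5C (log2 difference −0.59, adjusted p = 0.207). Tmem151a-203, a transcript of 507 bases, stood at 0.64, 0.563 and 0.428 against 18.9, 11.9 and 13.1 (log2 difference −3.32, adjusted p = 0.0265). The transcript of 4006 bases for the protein of 468 residues, Tmem151a-201, stood at 36.1, 36.4 and 36.2 against 44.96, 40.3 and 38.9 (adjusted p = 0.944). Because FPKM is scaled to length, the short transcript adds 11.9 to 18.9 FPKM to the sum in SSp5C. In TG it stood at 7.37, 0.046 and 8.56 in CTG and at 6.06, 0.158 and 8.03 in STG.

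**Figure D3:**
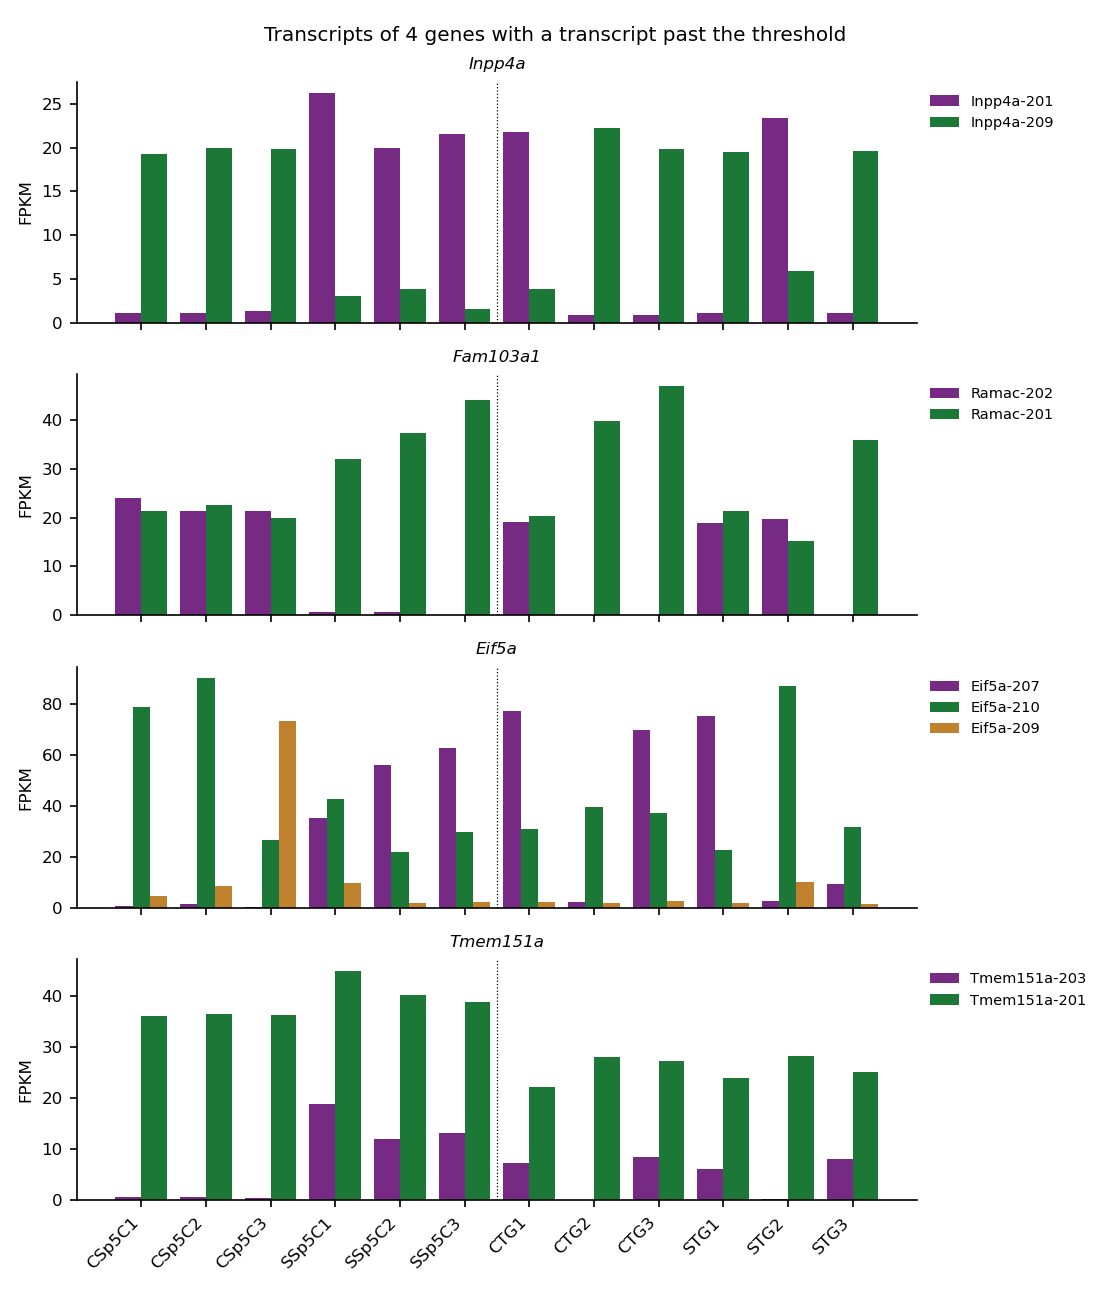
FPKM (y axes) of the main transcripts of Inpp4a, Fam103a1 (Ramac), Eif5a and Tmem151a in each library (x axis, Sp5C left and TG right of the dotted line). Within Sp5C the levels of Inpp4a-201, Ramac-202, Eif5a-207 and Tmem151a-203 divide by letter. Within TG, high and low libraries of each occur under both letters.

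Targets of the glucocorticoid receptor stood higher in CSp5C as a list. Glucocorticoids are adrenal steroids that bind the receptor encoded by Nr3c1, which then binds palindromic DNA elements near its target genes. Of the 18 targets and receptor genes on the list, all tested, 17 had a higher mean in CSp5C, beside 50.3% of all genes. At an unadjusted p under 0.05 there were 12 (2.15% of all genes were higher at that level), and 11 did not overlap (4.69% of all genes). The median log2 difference was 0.37 against 0.00 over all genes. None passed the adjusted threshold, the lowest adjusted p being 0.365. The mean log2 level over the list was 4.04, 4.37 and 4.09 in CSp5C and 3.75, 3.79 and 3.74 in SSp5C, without overlap.

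Sgk1, a kinase that controls ion channels and transporters and is a classic target of the receptor, had the largest difference in the list. It stood at 30.9, 56.6 and 52.9 FPKM in CSp5C and at 24.4, 20.3 and 25.2 in SSp5C, 2.01-fold apart in the means, with CSp5C replicate 1 close to the SSp5C values (adjusted p = 0.904). Without that library Sgk1 was among the 7 genes called. One of its promoter windows in RefSeq (build GRCm38.p6, the 250 bases before the start site, chr10:21993640-21993889, plus strand) holds the receptor's full palindrome. The window is shown because members of the list stood higher together, and the capitals mark the match.

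Sgk1: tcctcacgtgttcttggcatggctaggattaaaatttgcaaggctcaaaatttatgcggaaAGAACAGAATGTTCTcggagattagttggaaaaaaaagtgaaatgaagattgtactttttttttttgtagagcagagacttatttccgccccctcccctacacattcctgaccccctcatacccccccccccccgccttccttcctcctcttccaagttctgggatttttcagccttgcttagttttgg

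The match begins 189 bases before the start site, at chr10:21993701-21993715. The motif searched was AGAACA, any 3 bases and TGTTCT, which reads the same on both strands, and it occurred in 3 of 32851 RefSeq windows (0.00913%). Of the 18 genes 15 had at least 1 window, 25 windows in all, and the Sgk1 window was the only one with the full motif. The half-site TGTTCT on either strand, which the full motif contains, was in 5 of the 25 windows, of 3 genes (Sgk1, Sult1a1 and Tsc22d3), beside 16.1% of all windows. A match in letters does not show that the receptor binds there, and binding was not measured.

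Feedback regulators on the list showed smaller and tighter differences. Tsc22d3, the anti-inflammatory leucine zipper protein GILZ, stood at 61.4, 71.7 and 65.6 FPKM against 49.4, 50.5 and 53.4 (adjusted p = 0.5). Ddit4, an inhibitor of the growth kinase mTORC1, stood at 22.8, 28.1 and 24.3 against 16.8, 17.05 and 17.96 (adjusted p = 0.365). Fkbp5, a chaperone that lowers the hormone affinity of the receptor, stood at 8.07, 9.96 and 8.26 against 6.61, 7.54 and 5.498. In all of these the CSp5C libraries lay above the SSp5C libraries. Zbtb16, a zinc finger transcription factor, stood at 8.87, 12.96 and 9.72 against 7.19, 6.89 and 6.97, Cdkn1a, the cell cycle inhibitor p21, at 5.37, 8.04 and 7.29 against 4.30, 4.70 and 4.05, and Per1, a clock gene that is also a receptor target, at 10.2, 11.3 and 10.6 against 8.58, 8.93 and 9.74. CSp5C replicate 2 was the highest library for each of these, Sgk1 included. Dusp1, a phosphatase of MAP kinases, overlapped, at 8.80, 14.3 and 14.7 against 11.2, 8.94 and 10.2. Nr3c1 was the member with the lower mean, at 22.9, 20.2 and 17.04 against 21.7, 22.2 and 20.8.

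In the ganglia the list lay on the same side, with 16 of the 18 genes higher in CTG than in STG and a median log2 difference of 0.35, beside 48% of all genes higher there. The difference between the 2 tissues' effects had an unadjusted p under 0.05 for 2 of the 18 and an adjusted p of at least 0.862. Leaving out 1 Sp5C library at a time gave list medians of 0.30 (without CSp5C replicate 2) to 0.45 (without CSp5C replicate 1), with 16 or 17 genes higher.

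Myelin genes stood on the other side. All 13 genes of the oligodendrocyte list had a lower mean in CSp5C (49.7% of all genes were lower), 9 with an unadjusted p under 0.05 (2.87% of all genes) and 10 without overlap (6.2% of all genes). The median log2 difference was −0.28. None passed, the lowest adjusted p being 0.482. The mean log2(FPKM + 1) over the list was 6.84, 6.74 and 6.51 in the CSp5C libraries and 7.03, 6.97 and 6.96 in the SSp5C libraries. Part of this rested on CSp5C replicate 3: without it the median was −0.17, with 13 of 13 still lower.

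Mbp, which compacts the myelin membranes, stood at 741, 701 and 579 FPKM in CSp5C against 812, 795 and 844 in SSp5C, and Mog, a protein of the outer myelin surface, at 117, 117 and 87.1 against 135, 128 and 128. In both CSp5C replicate 3 was the lowest library and the groups did not overlap. Opalin, a membrane protein of mature oligodendrocytes, had the largest difference of the list, at 17.9, 13.4 and 11.5 against 19.1, 23.2 and 21.7. The lineage transcription factors showed the tightest groups. Olig2 stood at 15.7, 14.8 and 15.04 against 18.2, 18.8 and 18.9 (means 0.814-fold, adjusted p = 0.482) and Olig1 at 61.9, 57.7 and 55.4 against 82.3, 70.2 and 69.2 (adjusted p = 0.904). Olig2 did not depend on CSp5C replicate 3, which was not the lowest there.

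Oligodendrocyte precursors did not show this as a list. Of its 6 genes 3 were higher and 3 lower, with a median log2 difference of 0.02. Pdgfra, the growth factor receptor that defines these cells, stood at 11.6, 12.4 and 9.81 FPKM against 10.1, 13.7 and 10.5. Only Gpr17, which marks cells about to differentiate, was apart, at 17.6, 19.3 and 15.1 against 21.99, 21.4 and 20.4. In the ganglia 1 of 11 oligodendrocyte list genes was higher in CTG and the median was −0.15. The 10 RefSeq promoter windows of 8 oligodendrocyte genes held neither receptor motif. The half-site was in 16.1% and the full motif in 0.00913% of all windows. So 10 windows are too few to tell these genes from others.

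**Figure D4:**
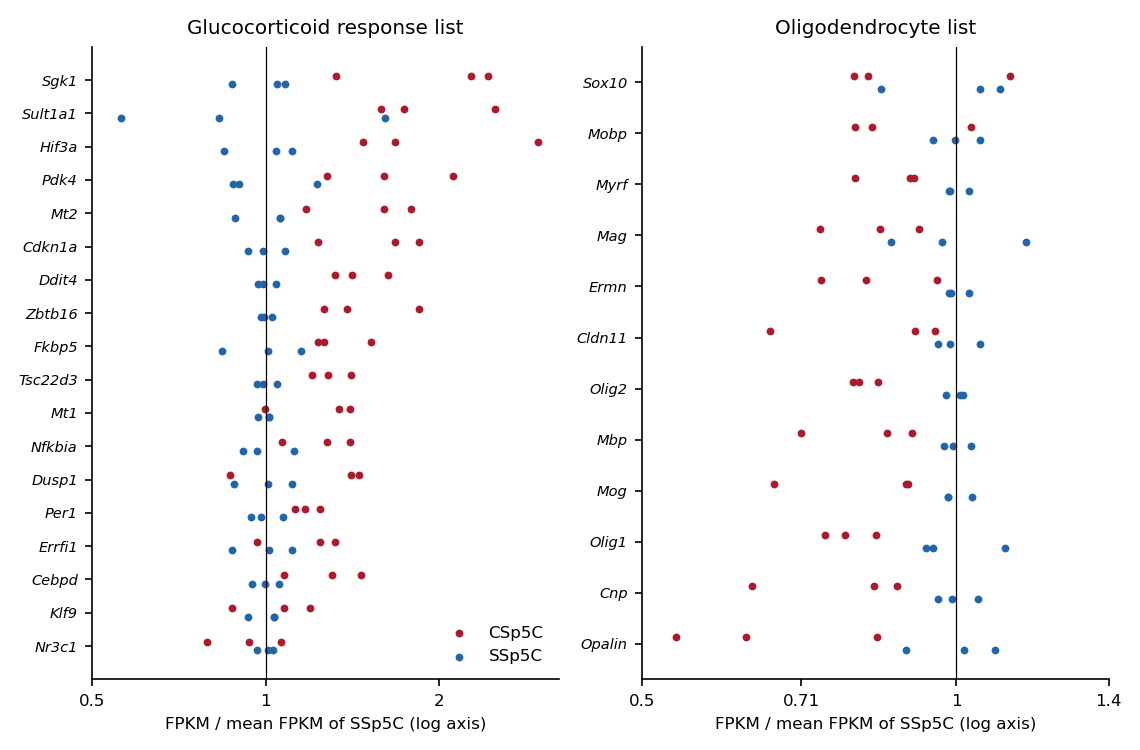
FPKM of each library divided by the mean of the SSp5C libraries (x axis, log scale) for the genes of the glucocorticoid response list (left) and 12 of the 13 genes of the oligodendrocyte list (right), CSp5C in red and SSp5C in blue. Most red dots lie to the right of the blue ones on the left side (17 of 18 genes by their means) and to the left of them on the right side (all 12 shown, by their means).

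Cholesterol synthesis, which myelin and all membranes draw on, was lower in mean for 13 of 16 genes (49.7% of all genes), with a median log2 difference of −0.11 and 6 without overlap (6.2% of all genes). Sqle, squalene epoxidase, stood at 33.3, 33.97 and 32.4 FPKM against 35.4, 38.7 and 37.6 (adjusted p = 0.904). No gene of the list passed.

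The other genes with the smallest p among those higher in CSp5C had varied roles. Chd2, a chromatin remodeller, stood at 17.2, 16.8 and 18.2 FPKM against 11.7, 13.4 and 13.3 (adjusted p = 0.382). Clk1, a kinase of splicing factors, stood at 32.5, 37.6 and 35.8 against 26.9, 26.9 and 28.2. Creb1, the transcription factor activated by cAMP and calcium signals in neurons, stood at 9.28, 9.04 and 10.2 against 7.05, 6.05 and 4.92 (adjusted p = 0.568). The ubiquitin-conjugating enzyme Ube2a was higher in CSp5C by 0.88 on the log2 scale, and the ubiquitin ligases Rnf181 and Cbll1 by 0.49 and 0.63. Mertk, a receptor with which glia take up debris and synapses, stood at 5.58, 4.84 and 4.78 against 3.61, 3.60 and 3.67. Hax1, a mitochondrial survival protein, stood at 23.5, 25.6 and 27.99 against 17.2, 17.4 and 15.5 (adjusted p = 0.168), and Net1, an exchange factor for RhoA, at 8.63, 8.67 and 8.55 against 6.32, 6.02 and 5.76 (adjusted p = 0.168). The rule for naming these 20 genes asked that the groups not overlap, so their separation is no result.

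Among the 20 genes lower in CSp5C, Prm2, Sez6l and Btf3 followed the 3 that passed, with the same adjusted p. Sez6l, a neuronal membrane protein of the Sez6 family, stood at 18.5, 18.6 and 19.4 FPKM against 25.6, 26.9 and 26.1 (log2 difference −0.46, SE 0.05, adjusted p = 0.0895). Btf3, the beta subunit of the complex that guards nascent polypeptides at the ribosome, stood at 49.1, 43.6 and 46.7 against 65.4, 68.3 and 70.3 (log2 difference −0.54, SE 0.06, adjusted p = 0.0895). Both had tight groups, which the choice by small p favours. These 20 genes too were named only where the groups do not overlap, so their separation is no result. Igsf8, an immunoglobulin superfamily protein that binds tetraspanins, stood at 18.2, 26.6 and 24.2 against 49.02, 41.5 and 37.3, and Sh3gl3, the endocytic protein endophilin A3, at 11.7, 13.05 and 12.6 against 18.8, 19.1 and 16.2. Fgfrl1, a receptor that binds fibroblast growth factors without a kinase domain, stood at 11.2, 8.41 and 8.84 against 14.8, 13.99 and 13.8. Nckap1, a part of the WAVE complex that drives actin branching, stood at 83.3, 84.6 and 85.7 against 96.4, 101 and 103. Gm12355 and Gm9844 are pseudogenes in RefSeq, and Pcdha2 shares exons with its neighbours in the protocadherin cluster, so their reads may have been shared with other genes. Gm12355 stood at 0.186, 0.165 and 0.249 FPKM against 4.755, 2.425 and 2.414 (adjusted p = 0.127). It passed the expression filter only through SSp5C, so it had to differ to be tested. In the ganglia Gm12355 stood at 0.378, 0.297 and 0.191 in CTG and at 2.334, 4.874 and 1.998 in STG, so it followed the letter there too. It was among the 6 genes called with a pseudocount of 0.1.

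Interferon and antigen presentation genes had higher means but wide spreads. Of 18 interferon response genes 17 were higher in CSp5C, with a median log2 difference of 0.29, and 3 of the 18 did not overlap (4.69% of all genes were higher without overlap). Gvin1, a very large interferon-inducible GTPase, stood at 3.98, 4.81 and 5.18 FPKM against 2.08, 2.32 and 1.95 (adjusted p = 0.134). Gm4070, a near copy of Gvin1 on the same chromosome, stood at 4.57, 6.30 and 6.12 against 1.86, 2.66 and 2.24 (adjusted p = 0.168). Reads that fit both could have been split between them, so the 2 are not independent. Igtp and Gbp3, GTPases that act on vacuoles holding pathogens, were highest in CSp5C replicate 2, at 4.65, 14.2 and 4.47 against 1.87, 2.60 and 3.27, and at 6.40, 10.5 and 4.70 against 3.00, 3.23 and 4.34. Isg15 and Ifit1, common markers of type I interferon, overlapped between the groups, at 1.31 to 3.38 and 1.71 to 4.38 FPKM over the 6 libraries. Without CSp5C replicate 1 the list's median was 0.13 with 13 of 18 higher, and without CSp5C replicate 3 it was 0.60 with 18 of 18 higher.

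MHC genes varied by library. Of 10 genes 9 were higher in mean, with a median of 0.55, and none had separate groups. Their summed level was 496, 241 and 90.6 FPKM in CSp5C and 99.3, 199 and 175 in SSp5C. B2m, the light chain of class I molecules, stood at 257, 110 and 49.7 against 53.0, 105 and 94.5, and Cd74, the invariant chain of class II, at 22.4, 13.3 and 2.56 against 3.00, 5.94 and 2.90. For these 2 genes CSp5C replicate 1 was the highest library and CSp5C replicate 3 the lowest. H2-K1, a class I heavy chain, differed from them, at 0.22, 18.4 and 1.85 against 4.58, 8.61 and 2.65, with CSp5C replicate 1 the lowest and replicate 2 the highest. Without CSp5C replicate 1 the median was 0.23. Of the microglial genes, C1qa, a part of complement C1q, stood at 43.5, 24.7 and 10.9 against 22.5, 24.9 and 22.3, and Aif1 stood at 7.90, 3.33 and 1.57 against 3.43, 3.28 and 4.77. Of the 22 microglia and macrophage genes 14 were higher and 8 lower, with a median of 0.02 and none without overlap.

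Acute inflammation markers were few. Il1b, Tnf, Il6, Ccl2, Il1a, Ccl3, Cxcl1 and Il10 all lay under the mean of 1 FPKM. Of the 18 tested cytokines, chemokines and receptors 7 were higher and 11 lower, with a median of −0.04. Cxcl12, a chemokine made by neurons and vessels, stood at 15.8, 16.5 and 16.6 FPKM against 16.9, 20.3 and 20.4. Lcn2, lipocalin 2, an acute phase protein of reactive astrocytes and vessels, stood at 3.00, 3.48 and 2.59 against 0.478, 1.47 and 1.32, without overlap (log2 difference 0.97, SE 0.21, adjusted p = 0.736). In the ganglia it stood at 53.8, 1.66 and 13.99 in CTG against 2.11, 0.851 and 1.99 in STG, and the groups overlapped. Gfap, the filament protein of astrocytes, overlapped at 283, 237 and 95.0 against 225, 199 and 212, as did Serpina3n at 21.7, 18.8 and 21.1 against 17.7, 20.8 and 18.03. S100b, a calcium-binding protein of astrocytes that oligodendrocytes also express, stood at 173, 170 and 129 against 213, 196 and 195.

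Both vessel lists had more genes higher than lower in CSp5C. Of the 8 pericyte and smooth muscle genes 6 were higher in CSp5C, with a median log2 difference of 0.16. Of the 8, 3 were higher without overlap (4.69% of all genes), all contractile genes of smooth muscle. Acta2, smooth muscle actin, stood at 13.7, 10.8 and 13.6 FPKM against 5.10, 10.6 and 6.37, so its groups nearly met. Myh11, smooth muscle myosin, stood at 7.56, 5.60 and 6.51 against 3.21, 4.43 and 3.79, and Tagln at 8.99, 8.04 and 7.74 against 3.13, 5.91 and 3.87. None passed, with adjusted p of 0.904, 0.571 and 0.846. The pericyte genes Pdgfrb and Rgs5 overlapped. Of the 11 endothelial genes 8 were higher in CSp5C, with a median log2 difference of 0.19. That median ranged from 0.16 to 0.24 over the settings tried. Without overlap were 3 higher (4.69% of all genes) and 1 lower (6.2%), and none passed. The mean log2 level over the list was at least 3.88 in CSp5C and at most 3.78 in SSp5C. In TG 6 of the 11 were higher in CTG, with a median of 0.02. Slc2a1, the glucose transporter of the blood-brain barrier, stood at 44.3, 42.01 and 40.6 against 36.8, 31.4 and 35.8. Mfsd2a, a lipid transporter of that barrier, stood at 17.2, 21.04 and 22.6 against 16.9, 15.004 and 14.945. Kdr, the VEGF receptor 2, stood lower, at 7.29, 6.07 and 5.34 against 7.39, 8.00 and 9.78. Meninges can bring vessel cells into a dissection: the 9 meningeal genes summed to 176, 138 and 51.9 FPKM in CSp5C and 36.2, 189 and 46.1 in SSp5C. Their part in the smooth muscle and endothelial values was not tested.

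No neuronal list had a gene past the threshold. The 14 genes of inhibitory neurons had a median log2 difference of −0.07. Of the 12 of excitatory neurons 9 were lower in CSp5C, with a median of −0.19, and without CSp5C replicate 1 the median was −0.01 with 6 of 12 higher. No gene of either list was free of overlap. Among excitatory markers Tac1, the precursor of substance P, stood at 14.9, 27.9 and 23.7 FPKM against 22.997, 31.3 and 25.6, and its receptor Tacr1 at 2.20, 2.06 and 2.81 against 2.04, 2.66 and 2.24. Calca, the precursor of CGRP, ranged from 5.21 to 15.9 in CSp5C and from 6.59 to 12.7 in SSp5C. Ramp1, the receptor component for CGRP, stood at 10.4, 9.75 and 9.43 against 10.96, 10.9 and 11.4, without overlap (adjusted p = 0.931). Activity genes overlapped too, with Fos at 6.995, 9.38 and 10.8 against 9.11, 7.59 and 7.11 and Arc at 7.76, 8.66 and 10.1 against 10.05, 8.76 and 9.81.

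Of the receptor and channel lists of synaptic transmission, 4 had medians close to 0 and 2 lay slightly lower. The median was 0.00 for 17 ionotropic glutamate receptor genes, 0.01 for 20 GABA and glycine receptor genes, −0.01 for 31 voltage-gated channel genes and 0.00 for 18 synaptic vesicle genes. Metabotropic glutamate receptors had a median of −0.08 with 6 of 7 genes lower, and serotonin and adrenergic receptors one of −0.09 with 8 of 12 lower. Grin1, the obligatory NMDA receptor subunit, stood at 68.5, 73.6 and 80.2 FPKM against 79.8, 72.9 and 76.2, and Glra1, the adult glycine receptor subunit, at 84.6, 88.9 and 105 against 85.9, 88.2 and 92.03. A few receptors lay apart. Without overlap and lower in CSp5C were 1 of 7 metabotropic glutamate receptors and 2 of 12 serotonin and adrenergic receptors (6.2% of all genes). Of the 17 ionotropic glutamate receptor genes 2 were lower and 1 higher without overlap (4.69% of all genes were higher). The GABA and glycine receptor list had 0. Grm3, an inhibitory metabotropic glutamate receptor of neurons and astrocytes, stood at 21.1, 21.8 and 19.5 against 23.6, 24.2 and 23.9. The noradrenaline receptor Adra1b stood at 2.83, 3.21 and 2.85 against 5.34, 3.74 and 5.57 (means 0.607-fold, adjusted p = 0.904), and Adra2a, the inhibitory receptor through which noradrenaline reduces pain transmission, at 11.4, 11.5 and 10.1 against 12.6, 12.8 and 11.7. None of these passed.

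Clock genes of the Period family had higher values in CSp5C. Per2 stood at 3.24, 4.71 and 3.84 FPKM against 2.29, 2.78 and 2.82, and Per3 at 6.85, 7.17 and 6.47 against 5.07, 5.56 and 5.92, each without overlap and with an adjusted p of 0.904. Arntl, the activator that pairs with Clock, stood at 3.82, 4.33 and 5.41 against 4.47, 4.64 and 4.27, and Nr1d1, which represses Arntl, at 18.5, 14.6 and 16.3 against 14.6, 21.9 and 20.6, and both overlapped. Of the 17 clock genes 12 were higher and 5 lower, with a median of 0.01, and 3 were higher without overlap (4.69% of all genes). In TG 4 of the 17 were higher in CTG, with a median of −0.12. The log2 difference there was −0.06 for Per1, 0.13 for Per2 and −0.25 for Per3. Heat shock genes were higher for 11 of 14, with a median of 0.09, and the inducible Hspa1b stood at 2.01, 8.27 and 8.71 against 1.79, 2.15 and 2.19, so that CSp5C replicate 1 lay among the SSp5C values there as it nearly did for Sgk1. Without CSp5C replicate 1, Hspa1b was among the 7 genes called.

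Markers of position and of neighbouring regions varied by library. All 16 tested Hox genes had a lower mean in CSp5C (median −0.23), beside 49.7% of all genes, but 15 of them overlapped between groups. Hoxa5 stood at 19.3, 32.2 and 23.7 FPKM against 30.4, 32.3 and 27.99. Only Hoxd4, at 5.89, 7.67 and 6.57 against 8.32, 7.71 and 8.42, did not overlap. That is near the share of all genes that were lower without overlap (6.2%). Over the list CSp5C replicate 2 held 186 FPKM and the other CSp5C libraries 123 and 135, beside 163 to 181 in SSp5C. Their median was −0.11 with CSp5C replicate 1 left out and −0.10 with CSp5C replicate 3 left out. The motor neuron list summed to 61.0, 22.2 and 100 FPKM in CSp5C and to 43.5 to 46.02 in SSp5C. Chat, the acetylcholine-making enzyme of motor neurons, stood at 4.86, 1.71 and 9.22 against 3.90, 3.97 and 3.63. Gabra6, the receptor subunit of cerebellar granule cells, stood at 2.13, 0.523 and 6.08 against 0.252, 0.396 and 0.157, and Ttr, the transthyretin of choroid plexus, at 17.9, 1.22 and 52.1 against 0.511, 9.13 and 8.47. CSp5C replicate 3 was thus the highest for motor neuron, cerebellar and choroid plexus genes and the lowest for myelin genes. Whether the cut of the tissue had a part in the myelin result was not tested.

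Mitochondrially encoded genes were higher in mean for 13 of 13, with a median of 0.27, through a low SSp5C replicate 1. In mt-Atp6, a subunit of ATP synthase, that library stood at 602 FPKM and the others at 4521 to 5956. Without it the median was −0.01, with 4 of 13 higher. The 32 nuclear genes of oxidative phosphorylation had a median of −0.03, the 49 genes of the large mitochondrial ribosome subunit one of 0.00 and the 30 cytosolic ribosomal proteins one of 0.01.

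The remaining lists were small in difference or uneven over libraries. Blood cell genes had a median of −0.37 over 7 genes, through haemoglobins such as Hba-a1, the alpha chain, at 109, 122 and 50.8 FPKM against 90.5, 196 and 202, and none had separate groups. The blood cell median ranged from −0.69 (without SSp5C replicate 1) to −0.18 (without CSp5C replicate 3). Complement genes had a median of 0.09 over 13, which was −0.21 with 5 of 13 higher without CSp5C replicate 1 and 0.44 with 12 of 13 higher without CSp5C replicate 3. Of these Cd55, which protects cells by speeding the decay of the convertases, stood at 4.87, 4.93 and 6.32 against 3.06, 4.56 and 3.66, and Cd59a, which blocks the membrane attack complex, at 8.97, 10.8 and 9.20 against 8.75, 7.23 and 8.09. Genes of endoplasmic reticulum stress had a median of −0.03 over 14, with Hspa5, the main chaperone of that compartment, at 73.1, 88.9 and 80.3 against 81.1, 83.4 and 80.4. Cell cycle genes had a median of −0.06 over 5 and noradrenaline and serotonin neuron genes one of 0.02 over 4. Ependymal genes (0.13) and peripheral nerve genes (0.35) rested on 2 tested genes each, and prostaglandin and nitric oxide genes (median 0.00 over 7) included Ptgds, a prostaglandin synthase of the meninges, at 1062, 1210 and 517 against 493, 1436 and 311. The 9 CHD chromatin remodellers had a median of 0.04, of which Chd2 is given above, Chd9 stood at 11.5, 13.1 and 13.4 against 9.87, 11.2 and 11.2, and Chd6 at 22.6, 23.3 and 24.2 against 21.1, 22.05 and 22.2. No gene of these lists passed.

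**Figure D5:**
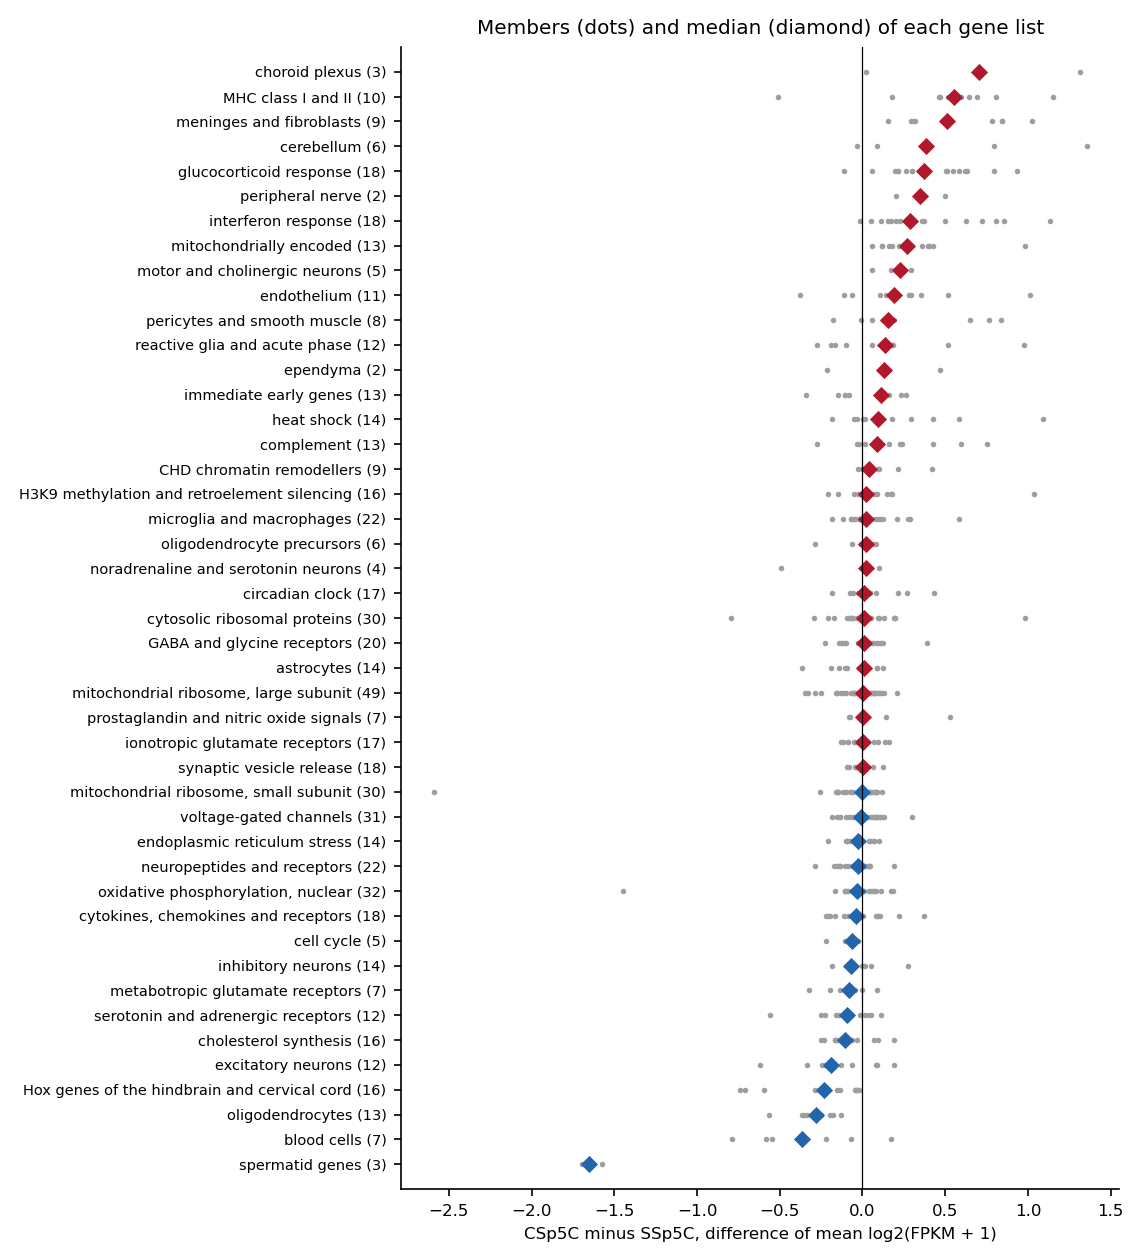
Difference between CSp5C and SSp5C (mean log2(FPKM + 1), x axis) for the tested genes of each of 45 lists (grey dots) and their median (diamond, red above and blue below 0), with the number of tested genes in brackets. The glucocorticoid list (median 0.37) and the oligodendrocyte list (median −0.28) have their dots nearly all on one side. So do other lists, among them the Hox (−0.23), interferon (0.29), MHC (0.55), meningeal (0.51) and mitochondrially encoded (0.27) lists. The ionotropic glutamate receptor, GABA and glycine receptor, voltage-gated channel and synaptic vesicle lists have medians of −0.01 to 0.01.

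The effect of the letter was set against that in the ganglia with an interaction term over all 12 libraries. Of 13081 genes, limma called 0 (0%), and 708 had an unadjusted p under 0.05 (5.41%). Btf3 had one of the smallest p, with a log2 difference of −0.54 in Sp5C and 0.28 in TG (difference −0.82, adjusted p = 0.862). Zfp68, a zinc finger protein, stood at 7.86, 6.24 and 7.27 FPKM in CSp5C against 12.9, 10.9 and 12.6 in SSp5C, with a difference of −0.83 from the ganglia (adjusted p = 0.862). Chd2 (0.60) and Usp53 (0.57), a protein of the ubiquitin protease family, differed in the other direction with the same adjusted p. 2810474O19Rik had a log2 difference of 1.04 in Sp5C and −0.26 in TG (adjusted p of the difference 0.898). No gene was therefore shown to respond to the letter in one tissue and not in the other. Without SSp5C replicate 2, and without SSp5C replicate 3, this test called 2 genes each.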

How the data were processed

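The authors deposited FPKM values per transcript and library in 3 tables. The protein-coding one (57109 transcripts of 21981 genes) was used for all results and the lncRNA ones only for the summed FPKM per library. Per the labels' protocols, Trizol-extracted RNA was depleted of ribosomal RNA and made into stranded libraries. The submitters' processing notes name HISAT2, StringTie 1.3.1 and Cuffdiff 2.1.1. For the genome build and annotation, the entry is: not given in the sources used here. FPKM hold no read numbers, so depth is unknown, apart from a relative depth taken from the commonest ratio of low values (under 0.5 FPKM), and no counting interval is given.

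Transcript FPKM were summed per gene identifier, 1 was added, and log2 values were tested with limma 3.58.1 (trend and robust options) in R 4.3.3, with files read by the data.table package, version 1.17.8. Genes needed a mean of at least 1 FPKM over the libraries compared. Tests were two-sided with Benjamini-Hochberg adjustment over all genes, threshold 0.05. The fits used the 6 Sp5C libraries, the interaction term all 12. The script was tested on simulated data. All 12 sample columns were mapped by title, leaving 0 unmapped. Fold changes are ratios of mean FPKM, and log2 differences understate the change of low genes.

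Named were all genes past the threshold, the 20 smallest p per direction without overlap, the first 3 members of each of 45 gene lists with up to 3 more by p, and all transcripts past the threshold or of genes past it. Of 732 list entries 729 were in the table. The comparison and the lists were chosen with earlier results of these data known, so no list is independent evidence. Same-numbered libraries were not taken as pairs. Some genes that the rule names are not reported here.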

Additional observations from a re-analysis of the deposited data

How the results depend on the processing

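Against 4 genes and 4 transcripts past the threshold, limma called 6 and 2 with a pseudocount of 0.1, 4 and 2 with 0.5, 5 and 1 with no expression filter, 0 and 3 with a minimum mean of 5 FPKM, and 3 and 13 without the trend. Both scalings (median ratio and quantile) gave 4 and 4, and a fit of all 12 libraries 0 and 5. Leaving out 1 library gave 0 to 8 genes, 7 to 23 transcripts and, for the difference from the ganglia, 0 to 2 genes. The medians of the glucocorticoid and oligodendrocyte lists kept their sign in these. So did those of many other lists, among them the Hox, interferon, MHC and cholesterol synthesis lists. The medians of further lists changed sign in some, that of the motor neuron list in 1.

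The replicate numbers did not pair the libraries: deviations from the group means of same-numbered libraries correlated at −0.13, 0.06 and 0.10, and 2 of 6 libraries correlated best with the library of their own number. With the number as a block, 0 genes and 0 transcripts passed (655 genes at an unadjusted p under 0.05, and 705 in the fit of all 12 libraries). Without SSp5C replicates, Prm1 and Tnp1 lay under the filter and gave no value. The causes were not tested. With 3 libraries per group and unknown depth, a difference that missed the threshold is not shown to be absent.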
